A study of Mus musculus with 22 samples.

Results

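The genes described here were 9 complement components and regulators of the mouse choroid plexus (ChP): the 3 chains of C1q (C1qa, C1qb and C1qc), the central component C3, the convertase subunits C4b and Cfb, the anaphylatoxin receptor C3ar1, and the regulators Cd55 and Serping1. They were taken as a list of genes named for their function, chosen with earlier results of these data known, out of 33984 genes to which transcript counts were joined, and all 9 passed the filter on low counts in each of 7 comparisons. RNA of dissected ChP tissue was sequenced in 14 pools of mice, 2 pools in each of 7 groups, and each pool is called A or B after the labels. The conditional model (strain S129) consisted of 3-month-old mice that all carried Otx2 lox/lox, so that the controls had the floxed alleles too. They received Cre-Tat, a recombinase fused to a peptide that carries it into cells, or vehicle into the lateral ventricles, were kept for 15 days, and gave pools of 5 mice (Cre-Tat) or 4 mice (vehicle) from the ChP of the lateral ventricles (LV) and of the fourth ventricle (4V). The constitutive model (strain B6D2) gave 4V ChP from pools of 3-month-old mice, with 5 wildtype (WT) mice or 4 mice labelled Otx2 (+/-) in a pool. The methods place a GFP allele at Otx2 in the latter. It also gave 4V ChP from pools labelled Otx2 (+/AA), whose allele, age and pool size are not explained in the sources used here. Males and females were mixed equally. By the methods, a sample of each Cre-Tat ChP was first tested by qPCR for lowered Otx2, so these mice were screened on that gene. Whether the LV and 4V pools of a letter came from the same mice is not stated in the sources used here.

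Complement is a cascade of plasma and tissue proteins that marks surfaces for uptake. C1q opens the classical pathway by binding a target and activating the proteases C1r and C1s, which cleave C4 and C2 into an enzyme that cleaves C3, and factor B (Cfb) forms the corresponding enzyme of the alternative pathway. Fragments of C3 coat the target or signal through receptors such as C3aR, while CD55 on cell membranes speeds the decay of the C3-cleaving enzymes and C1 inhibitor (Serping1) inactivates C1r and C1s. In the brain C1q is made mainly by microglia and macrophages, and the ChP holds macrophages of its own in the stroma and on the epithelium.

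The promoter windows of C1qb and C1qc are shown because these genes lie side by side, and those of C3, C3ar1 and Cd55 because these had the largest fitted folds in LV. RefSeq windows (GRCm38.p6, 250 bases before to 50 bases after the annotated start, each on the minus strand) were matched for 5 of the 9 members, at chr4:136886151-136886450 for C1qb, chr4:136892865-136893164 for C1qc, chr17:57228087-57228386 for C3, chr6:122856108-122856407 for C3ar1 and chr1:130462695-130462994 for Cd55. Each is written 5′ to 3′ with every match to a searched motif in capitals. 
C1qb: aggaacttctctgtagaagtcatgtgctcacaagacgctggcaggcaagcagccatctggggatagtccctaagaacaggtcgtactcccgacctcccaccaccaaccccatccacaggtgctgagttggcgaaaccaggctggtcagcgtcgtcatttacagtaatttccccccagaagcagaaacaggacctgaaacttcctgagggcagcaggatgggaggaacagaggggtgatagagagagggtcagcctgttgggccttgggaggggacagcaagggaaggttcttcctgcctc
C1qc: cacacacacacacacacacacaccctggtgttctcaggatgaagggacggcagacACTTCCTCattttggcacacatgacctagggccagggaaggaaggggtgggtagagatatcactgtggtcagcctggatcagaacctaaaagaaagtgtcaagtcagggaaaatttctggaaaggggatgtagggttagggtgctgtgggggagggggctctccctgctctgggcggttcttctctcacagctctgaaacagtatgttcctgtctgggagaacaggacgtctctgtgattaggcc
C3: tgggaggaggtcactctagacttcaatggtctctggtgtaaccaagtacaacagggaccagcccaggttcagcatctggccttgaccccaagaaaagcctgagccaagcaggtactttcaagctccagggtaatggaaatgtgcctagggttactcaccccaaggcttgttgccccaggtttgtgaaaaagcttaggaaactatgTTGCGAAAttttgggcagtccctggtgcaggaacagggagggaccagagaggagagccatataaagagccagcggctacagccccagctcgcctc
C3ar1: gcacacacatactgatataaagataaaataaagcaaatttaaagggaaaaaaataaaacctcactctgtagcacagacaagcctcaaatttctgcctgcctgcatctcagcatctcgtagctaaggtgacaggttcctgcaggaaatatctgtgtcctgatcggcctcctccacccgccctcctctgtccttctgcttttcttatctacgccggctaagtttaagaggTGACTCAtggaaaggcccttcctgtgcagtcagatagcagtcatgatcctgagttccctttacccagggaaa
Cd55: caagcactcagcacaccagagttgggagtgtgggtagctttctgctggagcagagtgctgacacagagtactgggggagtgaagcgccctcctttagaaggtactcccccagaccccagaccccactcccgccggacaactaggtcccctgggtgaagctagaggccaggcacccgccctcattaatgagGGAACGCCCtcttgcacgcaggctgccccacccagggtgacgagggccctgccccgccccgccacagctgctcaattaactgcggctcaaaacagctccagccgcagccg

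Both strands were searched for 7 motifs, none of which overlapped another where it matched. The motif TAATCC, bound by OTX2, was in none of the 5 windows, beside 7.1% of all 32851 promoter windows. GAGGAAGT (PU.1) was found in the C1qc window, 195 to 188 bases before the start on the opposite strand, and in 3.2% of all windows. TTGCNNAA (C/EBP) was found in the C3 window from 45 to 38 bases before the start and in 10.8% of all windows, and TGANTCA (AP-1), which reads alike on both strands, was found in the C3ar1 window from 22 to 16 bases before the start and in 7.8% of all windows. GGGNNTTCC (NF-kB) was found on the opposite strand of the Cd55 window from 60 to 52 bases before the start and in 5.8% of all windows. TTCNNNGAA (interferon gamma-activated site, 8.3% of all windows) and GAAANNGAA (interferon-stimulated response element, 8.6%) were in none of the 5, and a match is only a run of letters in this window.

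The pools held between 22750019 and 50088408 counts summed over all transcripts, with the vehicle 4V pools the shallowest. Of the 16 conditional files, 14 are attached to a sample whose library has another number than the one they are named for, and they were joined by number: the 2 runs of a pool then differed by a chi-square per degree of freedom of 1 to 1.04, against 21.1 to 37.3 when joined as attached. With the files as attached, Cd55 had the opposite sign in LV and 4V and C3ar1 in 4V, as given beside those genes. Otx2 went against the knockdown labels over its whole transcript: its counts-per-million (CPM) level lay between 1025 and 1236 in pools labelled Cre-Tat against 386 to 470 CPM in vehicle pools, and at 886 and 1027 CPM in pools labelled Otx2 (+/-) against 303 and 361 CPM in WT, so groups are named below by their labels only. Counts by exon of Otx2 were not analysed here. Ttr, the transthyretin made by ChP epithelium, was at 61120 to 185400 CPM in every pool, and it was lower in the pools labelled Cre-Tat in 4V (log2 -1.18, SE 0.3, adjusted p = 0.015) and in Otx2 (+/-) (log2 -0.78, SE 0.17, adjusted p = 0.039), with a value of -0.66 (SE 0.19, adjusted p = 0.077) in LV and -0.36 (SE 0.12, adjusted p = 0.32) in Otx2 (+/AA).

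Cre-Tat against vehicle compares floxed mice 15 days after either injection, and in both ventricles 5 of the 9 members rose in the pools labelled Cre-Tat: C3, Cd55, C3ar1, C1qa and C1qb. None fell. In LV 5 of 9 members compares with 3.24% of 15002 genes tested that were called in either direction (2.21% higher), and in 4V with 10.7% of 14550 genes called (5.7% higher), by an edgeR quasi-likelihood test with Benjamini-Hochberg adjustment at 0.05. The median log2 fold change of the members was 0.94 in LV and 0.84 in 4V, beside 0.004 and 0.006 over all genes tested. All 9 fitted values were above 0 in both ventricles, and they ran from 0.04 for Serping1 to 2.71 for C3 in LV and from 0.16 for Cfb to 3.6 for C3 in 4V. C3 had 11 and 3 counts in the vehicle 4V pools and entered the 4V test through the pools labelled Cre-Tat, where it was high. Its part in the 4V count and range is therefore tied to the count filter.

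**Figure D1:**
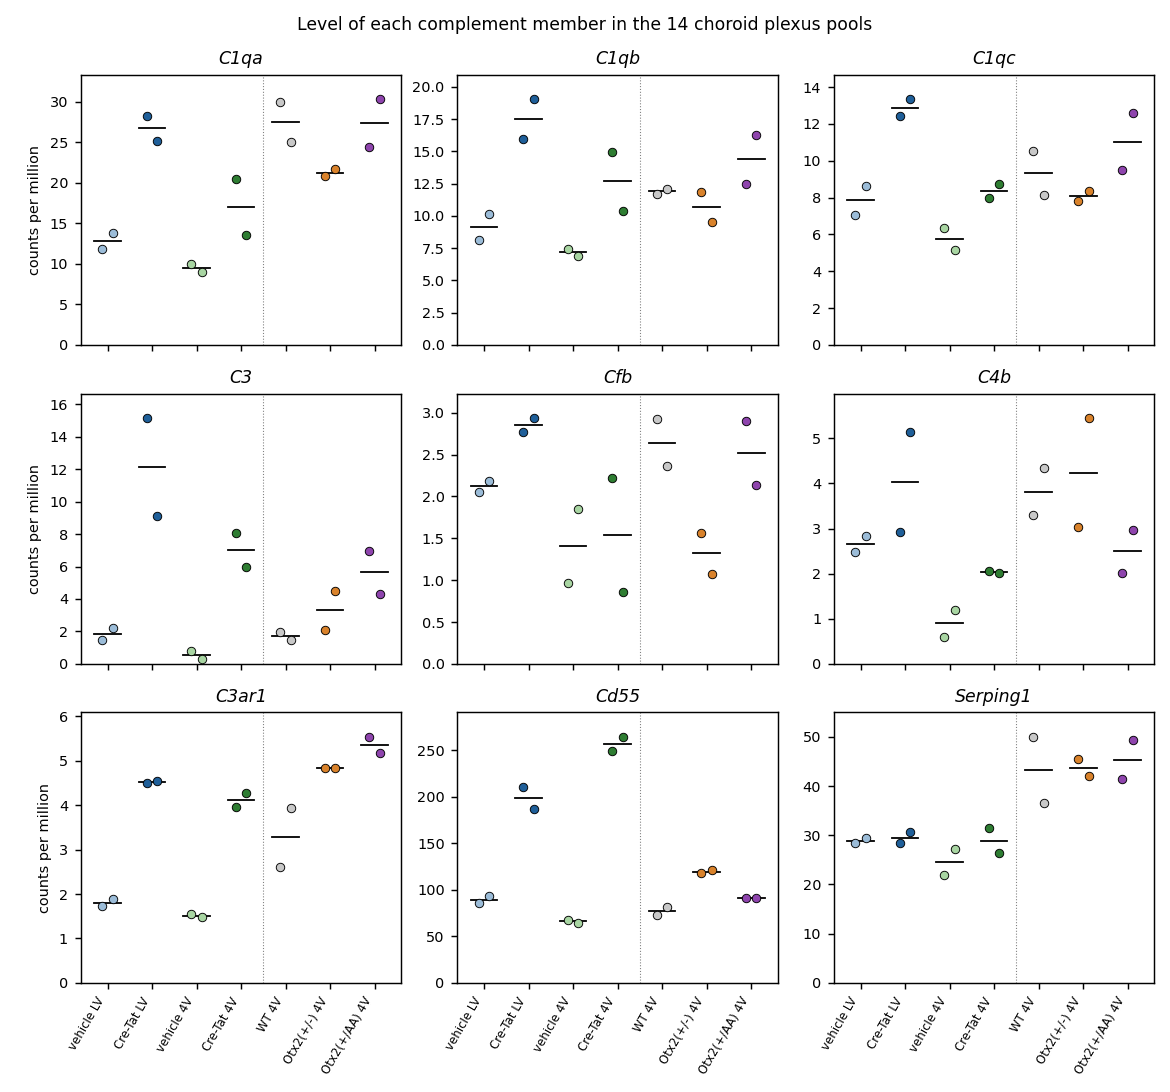
Level in CPM (vertical axis, starting at 0) of each of the 9 members in the 14 pools, with 1 point per pool, 7 groups along the horizontal axis and a bar at the mean of the 2 pools. C3, C3ar1, Cd55, C1qa and C1qb, which passed the test in both ventricles, are higher in both pools labelled Cre-Tat than in both vehicle pools of the same ventricle. The same holds for C4b and C1qc, which passed in neither ventricle. How many of all genes separate in this way was not counted. The dotted line separates the conditional from the constitutive model.

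C1qa, C1qb and C1qc encode the A, B and C chains, which assemble into C1q together, and lie side by side in the order C1qb, C1qc, C1qa at chr4:136880129-136898803 (mm10). C1qa stood at 11.9 and 13.8 CPM in vehicle LV pools A and B and at 28.3 and 25.1 CPM in the pools labelled Cre-Tat. In 4V it stood at 10 and 8.95 CPM with vehicle and at 20.5 and 13.6 CPM with Cre-Tat. Both Cre-Tat pools were above both vehicle pools in each ventricle, with the narrower gap in 4V, where Cre-Tat pool B was the lower of its group. The fitted fold was 2.09 in LV (log2 1.06, SE 0.18, adjusted p = 0.0041) and 1.79 in 4V (log2 0.84, SE 0.21, adjusted p = 0.013).

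C1qb, the B chain, rose as well. It was at 8.12 and 10.2 CPM in vehicle LV, at 16 and 19 CPM in Cre-Tat LV, at 7.41 and 6.92 CPM in vehicle 4V and at 15 and 10.4 CPM in Cre-Tat 4V, without overlap within a ventricle. Its fold was 1.92 in LV (log2 0.94, SE 0.19, adjusted p = 0.016) and 1.77 in 4V (log2 0.82, SE 0.22, adjusted p = 0.018). C1qc had 7.07 and 8.65 CPM in vehicle LV against 12.4 and 13.4 CPM in Cre-Tat LV, and 6.37 and 5.17 CPM against 7.98 and 8.77 CPM in 4V. The C1qc groups did not overlap either, but its log2 differences of 0.71 (SE 0.2, adjusted p = 0.067) in LV and 0.53 (SE 0.22, adjusted p = 0.15) in 4V did not pass the test.

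The calls of the C1q chains rested on few pools. Without vehicle LV pool A the adjusted p of C1qb in LV was 0.13, and without Cre-Tat 4V pool A those of C1qa and C1qb in 4V were 0.14 and 0.18, with log2 values of 0.5 and 0.52. With counts summed over all transcripts of each gene the adjusted p in 4V was 0.058 for C1qa and 0.07 for C1qb, at log2 values of 0.84 and 0.82 as before.

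C3, whose cleavage all pathways share (chr17:57203970-57228136), showed the largest fold of the members in both ventricles. Its level was 1.48 and 2.24 CPM in vehicle LV, from 31 and 45 counts, and 15.1 and 9.13 CPM in Cre-Tat LV, from 377 and 199 counts. In vehicle 4V it was 0.815 and 0.277 CPM, from 11 and 3 counts, against 8.03 and 5.94 CPM, from 148 and 118 counts, in Cre-Tat 4V. C3 was thus close to the lowest levels counted in vehicle 4V and several CPM in every pool labelled Cre-Tat. Only pool A of vehicle 4V reached the cutoff of the count filter, so C3 entered the 4V test through the pools labelled Cre-Tat, where it was high. The fold was 6.55 in LV (log2 2.71, SE 0.3, adjusted p = 0.00017) and 12.1 in 4V (log2 3.6, SE 0.4, adjusted p = 9.7e-06), and the interval of 2 SE on each side ran from 2.8 to 4.39 in 4V on the log2 scale. C3 kept its call with any 1 pool left out, with log2 values from 2.31 to 3.04 in LV and from 3.09 to 4.63 in 4V.

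Cfb and C4b, which supply the other subunits of the C3-cleaving enzymes, did not pass the test in either ventricle. Cfb lay at 2.05 and 2.19 CPM in vehicle LV and 2.77 and 2.94 CPM in Cre-Tat LV (log2 0.43, SE 0.32, adjusted p = 0.66), and in 4V its groups overlapped, at 0.963 and 1.85 CPM against 2.23 and 0.856 CPM. C4b lay at 2.48 and 2.84 CPM in vehicle LV against 2.93 and 5.14 CPM in Cre-Tat LV (log2 0.6, SE 0.33, adjusted p = 0.46), and at 0.593 and 1.2 CPM against 2.06 and 2.02 CPM in 4V (log2 1.22, SE 0.45, adjusted p = 0.099). Both genes were counted on few reads, 13 to 69 per pool for Cfb and 8 to 112 for C4b. Their reads are also shared with other genes: of the 50-base windows of the counted transcript, the length of a read, 81.8% also occur in the readthrough gene Gm20547 for Cfb and 35.2% in the paralog C4a for C4b, so the values of both are uncertain.

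C3ar1, the receptor for the C3a fragment, was low in all pools and higher in both ventricles with Cre-Tat. Vehicle LV pools held 1.72 and 1.89 CPM against 4.5 and 4.54 CPM in Cre-Tat LV, and vehicle 4V pools 1.56 and 1.48 CPM against 3.96 and 4.28 CPM in Cre-Tat 4V. The 2 pools of each group were close to each other, and the gap between groups was larger than either group's range. The fold was 2.5 in LV (log2 1.32, SE 0.3, adjusted p = 0.025) and 2.71 in 4V (log2 1.44, SE 0.32, adjusted p = 0.0068). In LV the adjusted p rose to 0.098 without vehicle pool A, to 0.068 without Cre-Tat pool A and to 0.079 with transcripts summed, and with the files as attached the log2 value was 0.14 in LV and -0.01 in 4V.

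Cd55, decay-accelerating factor, was the most abundant member and the one with the smallest adjusted p in 4V. It stood at 86.4 and 93 CPM in vehicle LV, at 210.5 and 187.3 CPM in Cre-Tat LV, at 67.6 and 64.6 CPM in vehicle 4V and at 249.8 and 264.4 CPM in Cre-Tat 4V. Vehicle pools were lower in 4V than in LV while pools labelled Cre-Tat were higher in 4V than in LV. The fold was 2.22 in LV (log2 1.15, SE 0.16, adjusted p = 0.0011) and 3.9 in 4V (log2 1.96, SE 0.14, adjusted p = 3.5e-08). Leaving out any 1 pool gave log2 values from 1.08 to 1.24 in LV and from 1.93 to 2.01 in 4V, all past the threshold, whereas the files as attached gave -0.16 (SE 0.03) in LV and -0.45 (SE 0.03) in 4V.

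The 5 annotated transcripts of Cd55 moved together. Their mean CPM in pools labelled Cre-Tat over that in vehicle pools was 1.9 to 2.22 in LV and 3.46 to 4.09 in 4V, and a read can be counted on every transcript it overlaps, so these are not separate measurements. Of the 50-base windows of the counted Cd55 transcript, 13.3% also occur in Cd55b, a neighbouring copy of the gene, which had 0 to 26 counts per pool, and 2.17% in the antisense gene Gm16083.

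Serping1, C1 inhibitor, did not pass the test in either ventricle. It was at 28.4 and 29.4 CPM in vehicle LV and 28.4 and 30.7 CPM in Cre-Tat LV, and at 21.9 and 27.2 CPM against 31.5 and 26.4 CPM in 4V, so that groups overlapped in both ventricles. The log2 difference was 0.04 in LV (SE 0.16, adjusted p = 0.97), with 2 SE on each side reaching from -0.29 to 0.36, and 0.24 in 4V (SE 0.16, adjusted p = 0.43), reaching from -0.08 to 0.57.

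**Figure D2:**
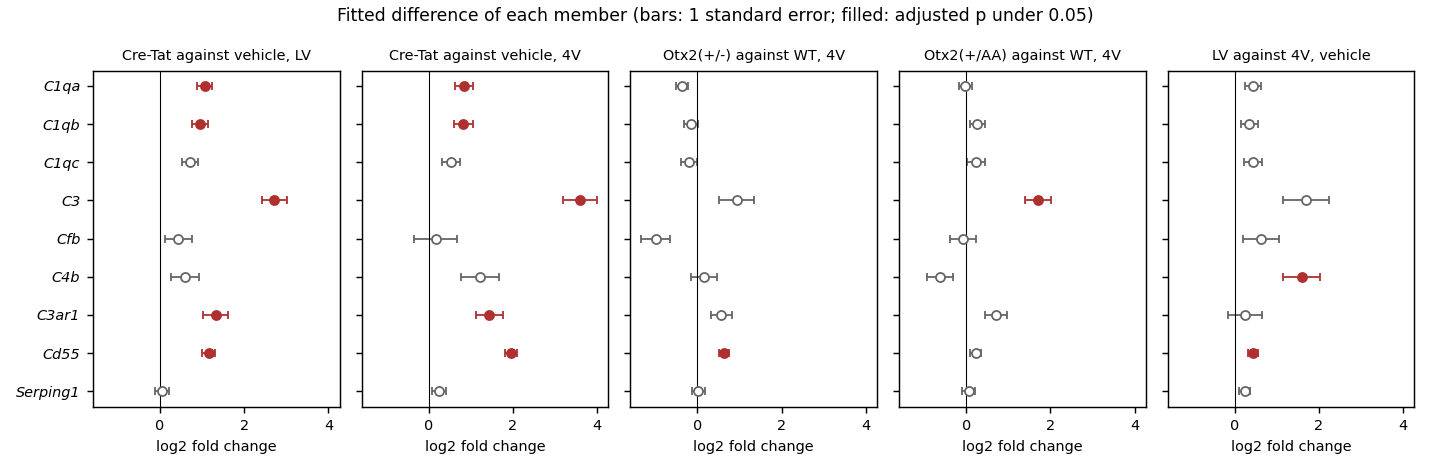
Fitted log2 fold change (horizontal axis) of the 9 members (rows) in 5 comparisons (panels), with bars of 1 standard error on each side and filled points where the adjusted p was under 0.05. C3, C3ar1, Cd55, C1qa and C1qb are filled in both comparisons of Cre-Tat with vehicle, Cd55 alone in Otx2 (+/-) against WT, C3 alone in Otx2 (+/AA) against WT, and C4b and Cd55 in LV against 4V.

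Whether the response itself differed between ventricles was tested as an interaction over the 8 conditional pools. By edgeR 0 of the 9 members passed and 1 gene of 15565 did (0.00642%), while 416 genes had an unadjusted p under 0.05, and DESeq2 called 0 members as well. Cd55 was the only member with an unadjusted p under 0.05: its LV response was lower than its 4V response by a log2 difference of -0.81 (SE 0.19, unadjusted p = 0.00086, adjusted p = 0.75). For C3 the difference was -0.89 (SE 0.59), reaching from -2.06 to 0.28 with 2 SE on each side, and for C1qa it was 0.22 (SE 0.28), reaching from -0.34 to 0.78, so that differences of these sizes could not be told from none with 2 pools a group.

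The constitutive comparison of Otx2 (+/-) with WT gave a smaller set: Cd55 was higher and the other 8 members did not pass the test. That is 1 of 9, against 3.53% of 14573 genes tested. Cd55 stood at 72.6 and 81.6 CPM in WT and at 117.7 and 121 CPM in pools labelled Otx2 (+/-), a fold of 1.55 (log2 0.63, SE 0.12, adjusted p = 0.022). Without WT pool A the adjusted p was 0.087, at a log2 value of 0.55, and with transcripts summed it was 0.051, at 0.63.

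The C1q chains had fitted values below 0 in Otx2 (+/-) pools. C1qa was at 30 and 25.1 CPM in WT and at 20.9 and 21.7 CPM in Otx2 (+/-), without overlap, for a log2 value of -0.37 (SE 0.14, adjusted p = 0.21). C1qb had a log2 value of -0.16 (SE 0.17) and C1qc of -0.21 (SE 0.19), and neither passed. C3 was at 1.98 and 1.46 CPM in WT against 2.07 and 4.52 CPM in Otx2 (+/-), a log2 value of 0.93 (SE 0.41, adjusted p = 0.27) that turned on pool B. C3ar1 lay at 2.61 and 3.94 CPM in WT and 4.85 and 4.83 CPM in Otx2 (+/-) (log2 0.57, SE 0.26, adjusted p = 0.29), and Cfb was the member with the lowest value, at 2.92 and 2.36 CPM against 1.57 and 1.08 CPM (log2 -0.99, SE 0.34, adjusted p = 0.16). C4b and Serping1 had log2 values of 0.16 (SE 0.31) and 0.02 (SE 0.16).

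In Otx2 (+/AA) against the same WT pools, C3 was the single member past the threshold, beside 0.345% of 14494 genes tested. C3 stood at 6.99 and 4.33 CPM in pools labelled Otx2 (+/AA), both above the 1.98 and 1.46 CPM of WT, a fold of 3.26 (log2 1.7, SE 0.31, adjusted p = 0.043). The adjusted p was 0.31 without Otx2 (+/AA) pool A, at a log2 value of 1.31, and 0.14 with transcripts summed. C3ar1 was at 5.53 and 5.16 CPM against 2.61 and 3.94 CPM in WT (log2 0.7, SE 0.26, adjusted p = 0.4). Cd55, at 91.1 and 91.4 CPM, had a log2 value of 0.23 (SE 0.13, adjusted p = 0.69), C4b one of -0.62 (SE 0.3, adjusted p = 0.59), and C1qa, C1qb, C1qc, Cfb and Serping1 lay between -0.07 and 0.26. Because both constitutive comparisons share the WT pools, their values are set side by side only.

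Cre-Tat against vehicle and Otx2 (+/-) against WT were then compared with each other in 4V by an interaction over 8 pools. The differences of C1qa and Cd55 themselves differed between the models, 2 of 9 members beside 1.64% of 15327 genes tested. Cd55 rose more in the conditional model by a log2 difference of 1.32 (SE 0.17, adjusted p = 0.0018), and this held without any 1 of the 8 pools, with adjusted p from 0.0029 to 0.019. For C1qa, which rose with Cre-Tat and did not pass in Otx2 (+/-), the difference was 1.2 (SE 0.27, adjusted p = 0.044). That call was lost in 7 of the 8 fits with 1 pool left out, the exception being the fit without Cre-Tat 4V pool B, with adjusted p between 0.053 and 0.2. C3 had the largest fitted difference of the members, 2.66 (SE 0.65, adjusted p = 0.067). Model, strain and sequencing run cannot be told apart in this comparison.

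Between ventricles in vehicle mice, C4b and Cd55 were higher in LV ChP than in 4V ChP and the other 7 members did not pass, beside 7.44% of 14561 genes tested. C4b stood at 2.48 and 2.84 CPM in LV against 0.593 and 1.2 CPM in 4V, a fold of 3.02 (log2 1.59, SE 0.44, adjusted p = 0.043) from only 8 and 13 counts in 4V. Cd55 stood at 86.4 and 93 CPM against 67.6 and 64.6 CPM, a fold of 1.35 (log2 0.44, SE 0.12, adjusted p = 0.037). All 9 fitted values were above 0, with a median of 0.43 beside 0.006 over all genes, and C3 had the largest, 1.69 (SE 0.54, adjusted p = 0.078). Markers of other cells moved in the same direction: macrophage and microglia markers had a median of 0.45, with 16 of 17 above 0 and 2 called higher, and endothelial markers a median of 0.61, with 8 of 8 above 0 and 3 called higher, and their part in the result was not tested. Neither call held without vehicle LV pool B, vehicle 4V pool A or vehicle 4V pool B, where the adjusted p lay between 0.071 and 0.22 for C4b and between 0.1 and 0.23 for Cd55. With total counts in place of TMM, which shifted the median of all genes by -0.185, neither passed.

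Levels can be compared between genes only per length of the counted transcript. On that scale of CPM per kilobase, averaged over the 14 pools, Cd55 was highest with 50.7, followed by Serping1 with 19.7 and C1qa with 19.5, C1qb with 10.95 and C1qc with 7.53. C3 with 0.896, C3ar1 with 0.844, Cfb with 0.752 and C4b with 0.536 were all lower. The order differed between groups: by group mean C3 was the lowest member in vehicle LV (0.362) and vehicle 4V (0.106) and stood above C3ar1, Cfb and C4b in Cre-Tat LV (2.36) and Cre-Tat 4V (1.36). C1qa was below Serping1 in vehicle LV (12.3 against 16.3) and above it in Cre-Tat LV (25.7 against 16.7). Per length, C1qa was 1.35 to 1.85 times C1qb in the 8 conditional pools and 1.85 to 2.68 times in the 6 constitutive pools, and C1qc was 0.482 to 0.816 times C1qb over all 14.

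Markers of macrophages and microglia moved with these members. Of 20 markers, among them Csf1r, Cd68, Aif1, Ptprc and Adgre1, 3 were higher in Cre-Tat LV (Ptprc, Adgre1 and Ctss) and none lower, beside 2.21% of all genes tested called higher. The median log2 value in LV was 0.73, with 18 of 20 above 0 and Cd163 and Pf4 below. In 4V 8 of the 18 that passed the count filter were higher and none lower (median log2 0.9), beside 5.7% of all genes tested called higher. Among these 8, Fcer1g had only 4 counts in each vehicle 4V pool. It passed the filter through the pools labelled Cre-Tat, where it was high. The summed level of the 20 markers was 111.4 and 128.7 CPM in vehicle LV against 221 and 178.3 CPM in Cre-Tat LV, and 86 and 84.4 CPM against 187 and 131.5 CPM in 4V, with none of them at 0 counts in any group. Ctss was the largest single part of that sum, with means of 37.6 CPM in vehicle LV and 71.1 CPM in Cre-Tat LV. In tissue RNA, more cells of a type and more RNA per cell cannot be told apart, and the part of these markers in the members' differences was not tested.

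C1q, C3 and C3ar1 were also expressed as a percent of that sum, as a description. The 3 C1q chains together made 24.3% and 25.3% of the marker sum in vehicle LV and 25.7% and 32.3% in Cre-Tat LV, and in 4V 27.7% and 25% with vehicle and 23.2% and 24.9% with Cre-Tat, so the share was close to that of vehicle in all but Cre-Tat LV pool B. C3 instead went from 1.33% and 1.74% to 6.85% and 5.12% in LV and from 0.948% and 0.328% to 4.3% and 4.52% in 4V. C3ar1 went from 1.54% and 1.47% to 2.04% and 2.55% in LV and from 1.81% and 1.75% to 2.12% and 3.26% in 4V, again without overlap. In the constitutive model the marker sum was 158.4 and 146.9 CPM in WT, 184.9 and 181.2 CPM in Otx2 (+/-) and 187.7 and 185.9 CPM in Otx2 (+/AA), and the C1q share of it was 33% and 30.9% in WT against 21.9% and 21.8% in Otx2 (+/-), while Otx2 (+/AA), at 24.7% and 31.8%, overlapped WT. The C3 share was 1.25% and 0.996% in WT, 1.12% and 2.5% in Otx2 (+/-) and 3.72% and 2.33% in Otx2 (+/AA). The C3ar1 share was 1.65% and 2.68% in WT, 2.62% and 2.67% in Otx2 (+/-) and 2.95% and 2.78% in Otx2 (+/AA).

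**Figure D3:**
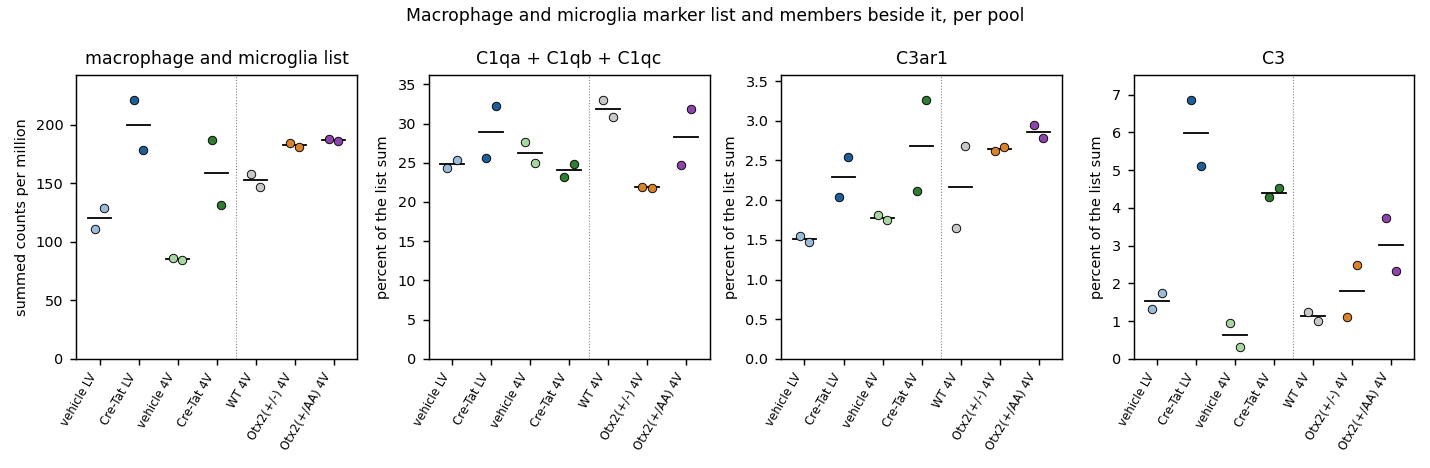
Summed CPM of 20 macrophage and microglia markers per pool (left panel) and the C1q chains, C3ar1 and C3 as a percent of that sum (other panels, vertical axes starting at 0), with 1 point per pool and a bar at the mean of the 2 pools of each of 7 groups. The marker sum and the C3 and C3ar1 shares are higher in both pools labelled Cre-Tat than in both vehicle pools of a ventricle, while the C1q share lies between 23.2% and 32.3% in pools labelled Cre-Tat and between 24.3% and 27.7% in vehicle pools.

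Other cell markers moved too, and their part was likewise not tested. The summed level of 6 B cell and plasma cell markers, nearly all of it the joining chain Jchain, was 0.621 and 3.98 CPM in vehicle LV and 62.1 and 5.51 CPM in Cre-Tat LV, and 0.667 and 0.554 CPM against 19.4 and 5.79 CPM in 4V. The 7 T cell and NK cell markers summed to 1.34 and 1.94 CPM against 7.71 and 4.13 CPM in LV and to 1.11 and 1.66 CPM against 4.99 and 2.77 CPM in 4V, with 1 of the 7 at 0 counts in Cre-Tat LV. Neutrophil markers reached 17.05 CPM in Cre-Tat 4V pool A and at most 1.61 CPM in the other conditional pools, with the defining marker Ly6g at 0 counts in all 14 pools. The 5 markers that set microglia apart, such as P2ry12 and Tmem119, had a median log2 value of 0.06 in LV and -0.07 in 4V, with 0 and 1 higher. Ependymal markers summed to 99.4 and 103.5 CPM in vehicle LV against 154 and 180.9 CPM in Cre-Tat LV, and to 123.2 and 100 CPM against 207 and 205.6 CPM in 4V, with 1 of 3 tested called higher in each ventricle. Of 4 astrocyte markers 2 were higher and 1 lower in both Cre-Tat comparisons. Of 10 fibroblast markers 3 were higher in Otx2 (+/-), where their sum was 1306 and 1224 CPM against 972.9 and 925.9 CPM in WT. Of 10 epithelial markers 4 were lower in Cre-Tat LV, 9 of 10 in Cre-Tat 4V and 3 of 10 in Otx2 (+/-), and their sum lay between 186700 and 233000 CPM in vehicle pools, between 88280 and 165700 CPM in pools labelled Cre-Tat, between 190500 and 201400 CPM in WT, at 127100 and 134700 CPM in Otx2 (+/-) and at 156800 and 159500 CPM in Otx2 (+/AA). Most of that sum came from Ttr, described above, and Enpp2. Over all genes tested, 3.24% in Cre-Tat LV, 10.7% in Cre-Tat 4V and 3.53% in Otx2 (+/-) were called in either direction.

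Among the other genes of the pathway, 47 of 48 listed genes were in the files and 21 to 23 passed the count filter in a comparison with Cre-Tat, Otx2 (+/-) or Otx2 (+/AA). Most did not pass the test. C1ra, C1s1, C2, Itgam and Cd59a are named below although they did not pass under Cre-Tat, a choice made after their values were seen. In LV 1 of 23 was higher and 1 lower, and in 4V 3 of 21 were higher and 1 lower, with medians of 0.05 and -0.03. Over all genes tested, 3.24% were called in LV and 10.7% in 4V, in either direction. Of the 3 higher in 4V, Cd55b and Hc passed the count filter only through the pools labelled Cre-Tat, where they were high, and Cd55b so had to differ. Of the proteases and collectins that start the cascade, 4 were tested in LV and 5 in 4V, and none passed: C1ra and C1s1, which C1q activates, had log2 values of -0.43 (SE 0.22) and 0.04 (SE 0.25) in LV and -0.12 (SE 0.25) and -0.22 (SE 0.29) in 4V. C2, the classical pathway partner of C4, had values of -0.35 (SE 0.25) and 0.07 (SE 0.29), and it too shares reads with Gm20547.

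The genes that rose included a receptor chain and a terminal component. Itgb2, the beta chain shared by the complement receptors CR3 and CR4, was at 1 and 1.84 CPM in vehicle LV against 4.54 and 3.49 CPM in Cre-Tat LV (log2 1.5, SE 0.36, adjusted p = 0.036), and at 1.19 and 0.831 CPM against 3.64 and 2.32 CPM in 4V (log2 1.54, SE 0.41, adjusted p = 0.02). Itgam, the alpha chain of CR3, had log2 values of 0.79 (SE 0.38, adjusted p = 0.37) and 1.14 (SE 0.41, adjusted p = 0.088). Hc, which encodes C5, rose in 4V from 0.37 and 0.923 CPM to 2.66 and 2.27 CPM (log2 1.97, SE 0.47, adjusted p = 0.011), and in LV its log2 value was 1.86 (SE 0.58, adjusted p = 0.11). Only pool B of vehicle 4V reached the cutoff of the count filter, so Hc entered the 4V test through the pools labelled Cre-Tat. Both Itgam and Itgb2 are also leukocyte genes.

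Regulators were mixed. Cd55b, the copy next to Cd55, had 2 counts over both vehicle 4V pools and 51 over both Cre-Tat 4V pools, a ratio per library of 16.2 with an exact 95% counting interval from 4.27 to 138, and part of its reads cannot be told from those of Cd55. Vtn, vitronectin, which keeps the terminal complex out of membranes, fell in 4V from 24 and 24.2 CPM to 15.3 and 11.2 CPM (log2 -0.86, SE 0.18, adjusted p = 0.0042). In LV it stood at 39.8 and 40.8 CPM with vehicle and at 21.4 and 40.7 CPM with Cre-Tat, and did not pass. Cpn1, the catalytic subunit of the carboxypeptidase that trims C3a and C5a, fell in LV from 13.9 and 13.3 CPM to 5.82 and 7.43 CPM (log2 -1.04, SE 0.2, adjusted p = 0.012). Cd59a, which blocks the terminal complex on membranes, was far more abundant at 157.9 to 269 CPM and did not pass in either ventricle, with log2 values of -0.38 (SE 0.16) in LV and -0.36 (SE 0.15) in 4V.

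In the constitutive model 3 regulators of 23 genes tested were lower in Otx2 (+/-), and none was higher, beside 3.53% of all genes tested called in either direction. Cpn1 fell from 4.39 and 3.88 CPM in WT to 0.202 and 0.257 CPM (log2 -4.13, SE 0.39, adjusted p = 0.0011), Vtn from 53.5 and 67.3 CPM to 14.5 and 21.9 CPM (log2 -1.73, SE 0.2, adjusted p = 0.0026), and Clu, clusterin, from 2056 and 1947 CPM to 1092 and 1220 CPM (log2 -0.79, SE 0.13, adjusted p = 0.013). In Otx2 (+/AA) Vtn alone of 22 fell, to 31.9 and 31.5 CPM (log2 -0.94, SE 0.15, adjusted p = 0.015), beside 0.345% of all genes tested called in either direction. Between vehicle LV and 4V, 5 of 21 were higher in LV, among them Cpn1 (log2 2.35, SE 0.23), Cd93 (1.01, SE 0.18), C1ra (0.89, SE 0.22) and Vtn (0.74, SE 0.13), with adjusted p between 4.3e-05 and 0.029 for these. Over all genes tested, 7.44% were called in that comparison, in either direction.

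**Figure D4:**
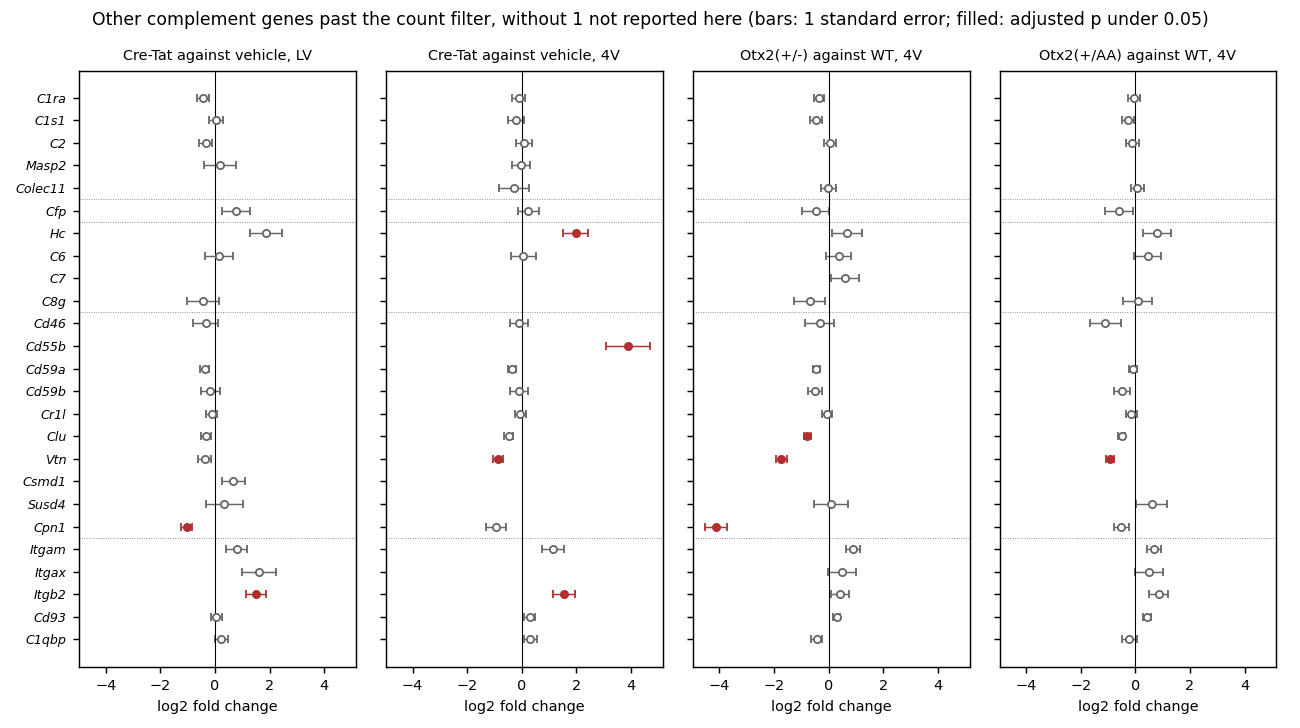
Fitted log2 fold change (horizontal axis) of other complement genes that passed the count filter (rows, without 1 gene that is not reported here, by role from initiation at the top through the alternative and terminal pathways and regulators to receptors) in 4 comparisons, with bars of 1 standard error on each side and filled points where the adjusted p was under 0.05. Itgb2 is filled on the higher side in both comparisons of Cre-Tat with vehicle, and Hc and Cd55b on the higher side in 4V. Filled on the lower side are Cpn1 in LV, Vtn in 4V, Cpn1, Vtn and Clu in Otx2 (+/-), and Vtn in Otx2 (+/AA).

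Likeness of pattern was measured over the 14 pools, after the mean of each model was taken away, as the Pearson correlation of log2 CPM with 11708 genes. These are descriptions, since the pools share treatment groups and run. C1qa was most like Cd74 (r = 0.946), S100a13, Psmb8, C1qb and AW112010, and C1qb was most like C1qa (r = 0.937), Cd74, H2-Aa, H2-Ab1 and AW112010, of which Cd74, H2-Aa and H2-Ab1 belong to antigen presentation by MHC class II. C1qc was most like Eci2, Borcs6, Aif1, Arap3 and C1qa (r = 0.899). C3 was most like Fam216b (r = 0.948), Ptprc, H2-Eb1, Arsk and Tpm3-rs7, and C3ar1 was most like Fam216b (r = 0.972), Iqcg, Vim, Plxdc2 and Veph1.

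Cd55 had another set of nearest genes, Lrrc75b (r = 0.974), Sned1, Golim4, Mdfic and Matn2, and among the members it was nearest to C3ar1 (r = 0.918) and C3 (r = 0.85) and farthest from Cfb (r = -0.019). C4b was most like 1810037I17Rik (r = 0.928), Cfb most like Gm14277 (r = 0.927) and Serping1 most like Nagpa (r = 0.847). With the sum of the macrophage and microglia markers r was 0.937 for C3, 0.883 for C1qa, 0.87 for C1qb, 0.848 for C3ar1, 0.829 for Cd55, 0.773 for C1qc, 0.591 for C4b, 0.547 for Serping1 and 0.426 for Cfb.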

How the data were processed

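The deposited files held raw read counts per Ensembl transcript, which the authors made from 50 base reads. The submitters' processing notes name bcl2fastq 1.8.4, Bowtie 0.12.9, SAMtools, HTSeq 0.5.3, DESeq 1.8.3 and build mm10. The labels describe strand-specific libraries after ribosomal RNA removal, whereas the methods describe polyA+ selection, and which applies was not settled. Of 95533 transcripts, 82807 were matched to GENCODE vM21 gene symbols, with 89.5% of counts, and the transcript with most counts stood for its gene. A read can be counted on every transcript it overlaps. Runs of a pool were summed. Files of the conditional model were joined by library number. The main test was the quasi-likelihood test of edgeR 4.0.16 (R 4.3.3) with filterByExpr, TMM scaling and Benjamini-Hochberg adjustment over all genes tested, at 0.05, for 5 pairs of groups and 2 interactions. With 2 pools in each group, exact permutation could reach no p below 0.333. CPM used TMM-scaled libraries over all 14 pools. DESeq2 1.42.0, other scalings and filters, summed transcripts, the pool letter as a block, left-out pools and the files as attached were alternatives. The test was checked on simulated counts. The members, gene lists and marker lists were chosen with earlier results of these data known. The named genes were the 9 members and those listed pathway genes that passed the threshold, besides the exceptions stated in the text. Pools are the replicates. The p-values rest on the spread between 2 pools per group, and edgeR draws each gene's variability toward that of the other genes tested. The SE of an edgeR fit was worked back from its log2 value and its test statistic. Counting intervals cover counting error only. The values of 1 listed pathway gene are not reported here, though it is part of the list's counts.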

Additional observations from a re-analysis of the deposited data

Results flagged for a closer look

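For 3 genes the difference between pools labelled as knockdown and their controls in 4V ChP itself differed between the conditional and the constitutive model, by the interaction term of the edgeR quasi-likelihood test with Benjamini-Hochberg adjustment. Model, strain and sequencing run cannot be told apart in each of them. For Cd55 the log2 difference between the models was 1.32 (SE 0.17, adjusted p = 0.0018), since it rose in both, by 1.96 with Cre-Tat and by 0.63 in Otx2 (+/-). For C1qa it was 1.2 (SE 0.27, adjusted p = 0.044), with 0.84 in the conditional and -0.37 in the constitutive model, of which the latter did not pass its own test, and the call was lost in 7 of 8 fits with 1 pool left out (log2 0.88 to 1.49, adjusted p up to 0.2). For Cpn1, the carboxypeptidase N subunit, it was 3.16 (SE 0.54, adjusted p = 0.011), with -0.96 (SE 0.37, adjusted p = 0.12) in the conditional and -4.13 in the constitutive model, where the Otx2 (+/-) pools held only 0.202 and 0.257 CPM.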

How the results depend on the processing

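With 2 pools a group, leaving out 1 pool changed calls, and C4b and Cfb had few counts in every pool. The number of members called with 1 pool left out ran from 3 to 5 in LV, 3 to 5 in 4V, 0 to 1 in Otx2 (+/-), 0 to 1 in Otx2 (+/AA), 0 to 3 for LV against 4V and 1 to 2 for the interaction with model. With transcripts summed it was 3 in 4V, 0 in Otx2 (+/-), 0 in Otx2 (+/AA), 0 for LV against 4V and 1 for the interaction with model. For LV against 4V it was 1 by DESeq2 and 0 with total counts, and for the interaction with model 4 with no filter. The cause was not tested. With the files as attached it was 8 in 4V, 3 for the interaction with ventricle and 5 for the interaction with model, a join in which runs of different libraries are summed.

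With the files as attached, log2 values were -0.16 for Cd55 in LV, -0.01 for C3ar1 and -0.45 for Cd55 in 4V, and for LV against 4V -0.03 for C1qc, -0.15 for C3ar1, -0.25 for C4b and -0.16 for Cd55. For the interaction with ventricle they were -0.35 for C1qa, -0.62 for C1qb, -0.12 for C1qc, 0.27 for C3, 0.14 for C3ar1, 0.28 for Cd55 and -0.57 for Cfb, and for the interaction with model -0.37 for C3, -0.59 for C3ar1 and -1.09 for Cd55. In Otx2 (+/AA), C1qa was 0.11 and Cfb 0.04 with total counts, and Cfb 0.1 with transcripts summed. With 1 pool left out, values crossed 0 for Serping1 in LV (-0.01 to 0.11), Otx2 (+/-) (-0.2 to 0.26), Otx2 (+/AA) (-0.15 to 0.3) and the interaction with model (-0.02 to 0.42), for Cfb in 4V (-0.69 to 0.7), Otx2 (+/AA) (-0.32 to 0.13) and the interaction with ventricle (-0.26 to 1.12), for C4b in Otx2 (+/-) (-0.32 to 0.51), for C1qa in Otx2 (+/AA) (-0.18 to 0.13) and the interaction with ventricle (-0.05 to 0.56), and for C1qb in that interaction (-0.12 to 0.42). None of the main values that crossed 0 in this way was past the threshold.

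Whether pools of the same letter belong together is not stated in the sources used here. LV and 4V pools may come from the same mice, and the main tests treated all pools as independent. Deviations of pools with the same letter correlated at -0.19 in LV, 0.28 in 4V, 0.42 in Otx2 (+/-), 0.11 in Otx2 (+/AA) and 0.15 for LV against 4V. With the letter as a replicate block 6 members were called in LV, 6 in 4V, 4 in Otx2 (+/-), 1 in Otx2 (+/AA), 3 for LV against 4V, 0 for the interaction with ventricle and 2 for that with model. Crossing the letters in LV, an alternative chosen after seeing the data, called 6 members and 1012 genes.

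Over all genes, calls moved by over 1.5 times from 486 in LV to 874 with no filter and 6709 with files as attached, and from 1554 in 4V to 3114 with the block and 8742 as attached. They moved from 515 in Otx2 (+/-) to 2539 with the block, and from 50 in Otx2 (+/AA) to 122 by DESeq2, 390 with no filter, 22 with transcripts summed and 549 with the block. For LV against 4V they moved from 1083 to 1840 with no filter, 2288 with the block and 4718 as attached. For the interaction with ventricle they moved from 1 to 5 by DESeq2, 31 with no filter, 0 with a mean count filter or summed transcripts, 2 with the block and 5258 as attached, and for that with model from 252 to 627 with no filter, 166 with transcripts summed and 4688 as attached. With 1 pool left out they ran from 321 to 737 in LV, 905 to 1665 in 4V, 402 to 881 in Otx2 (+/-), 35 to 382 in Otx2 (+/AA), 400 to 1968 for LV against 4V, 0 to 3 for the interaction with ventricle and 80 to 246 for that with model. Total counts in place of TMM shifted the median of all genes by 0.174 in LV, 0.147 in 4V, 0.114 in Otx2 (+/AA), -0.185 for LV against 4V and 0.123 for the interaction with model.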
